A study of Homo sapiens with 6 samples.

Results

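The genes described here carry the response to DNA in the cytosol, from its sensors to the kinase TBK1. They were taken as 9 listed genes of this pathway, namely the sensors CGAS, IFI16 and AIM2, the adaptor STING1 (listed under its older symbol TMEM173), the kinases TBK1 and IKBKE, the scaffold TANK, and the enzymes TREX1 and SAMHD1, out of 37887 gene symbols in the count table. RNA-seq was performed on 6 libraries of BT-549, a long-established line of human triple-negative breast cancer cells with wild-type BRCA1. The 3 control libraries are labelled as control shRNA cells given DMSO, and the 3 IRF1shRNA libraries as shIRF1 cells given doxycycline (DOX), at 0.1% DMSO and 500 ng/ml DOX by the description of the series. That description speaks of a single cell line with a tetracycline-inducible hairpin against IRF1, which encodes a DNA-binding regulator of interferon (IFN) responses, whereas the sample titles name a control hairpin. Under both readings DOX was given in the silenced group alone, so that effects of DOX and of the hairpin cannot be told apart.

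In this pathway the enzyme cGAS (gene CGAS) binds double-stranded DNA that has reached the cytosol and makes the messenger cGAMP, which binds STING on the endoplasmic reticulum. STING then moves toward the Golgi and recruits TBK1 and the related kinase IKKε (gene IKBKE), and TBK1 phosphorylates the transcription factor IRF3, which leads to transcription of type I IFN. Several genes of the pathway are themselves induced by IFN. The nuclease TREX1 removes cytosolic DNA and SAMHD1 breaks down the nucleotide precursors of DNA synthesis, and both are known as restraints on this response.

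The targeted transcript was followed as a check of the labels. IRF1 stood at 45.3, 48.1 and 51.5 CPM (the count relative to the library total after TMM scaling) in the control libraries and at 13.8, 14.9 and 14.6 CPM in the IRF1shRNA libraries, or 29.9% of control. Values listed by library follow the order of replicates 1 to 3 throughout. Total counts ran from 55143808, in IRF1shRNA replicate 2, to 160436234, and a total of 3 counts, as a limit of detection for counting error only, corresponded to 0.0182 to 0.054 CPM. The markers of the line matched a triple-negative cell of mesenchymal type, with ESR1 and PGR at no more than 0.144 and 0.325 CPM, EPCAM at no more than 0.158 CPM and VIM at 593 to 945 CPM, while ERBB2 was present at 35.0 to 54.8 CPM. Since AIM2 and IFI16 are best known from leukocytes, 6 leukocyte markers were summed as well. They reached 0.498 to 1.06 CPM per library, with CD3E at 1 count at most and a mean sum of 0.805 CPM in control and 0.745 CPM in IRF1shRNA libraries.

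Of the 9 genes, 7 passed the filter on low counts and were tested. In IRF1shRNA cells 5 of these fell (CGAS, IFI16, STING1, IKBKE and SAMHD1), 0 rose, and TBK1 and TANK did not pass the threshold, by edgeR's test with Benjamini-Hochberg adjustment over 18851 genes at an adjusted p under 0.05. No tested gene of the set rose at an unadjusted p under 0.05 in edgeR either (0 genes), and DESeq2 called 0 genes higher. Across all genes tested, 26.4% fell and 24.1% rose by this rule. The 9 genes were chosen with earlier results of these data known, so their comparison with all genes is no independent evidence. SAMHD1 and STING1 fell by more than 2-fold, against 4.43% of all genes tested, and 0 rose by as much, against 3.43%. In bulk RNA, fewer expressing cells and less RNA per cell cannot be told apart. The same 5 genes had lower values in every IRF1shRNA library than in any control library, which was the case for 29.5% of all genes tested. The median log2 fold change of the 7 genes was −0.76, beside −0.002 for all genes. Without IRF1shRNA replicate 2, the least deeply sequenced library, 5 genes again fell, 0 rose and 2 fell by more than 2-fold. The remaining genes, AIM2 and TREX1, did not pass the filter.

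**Figure D1:**
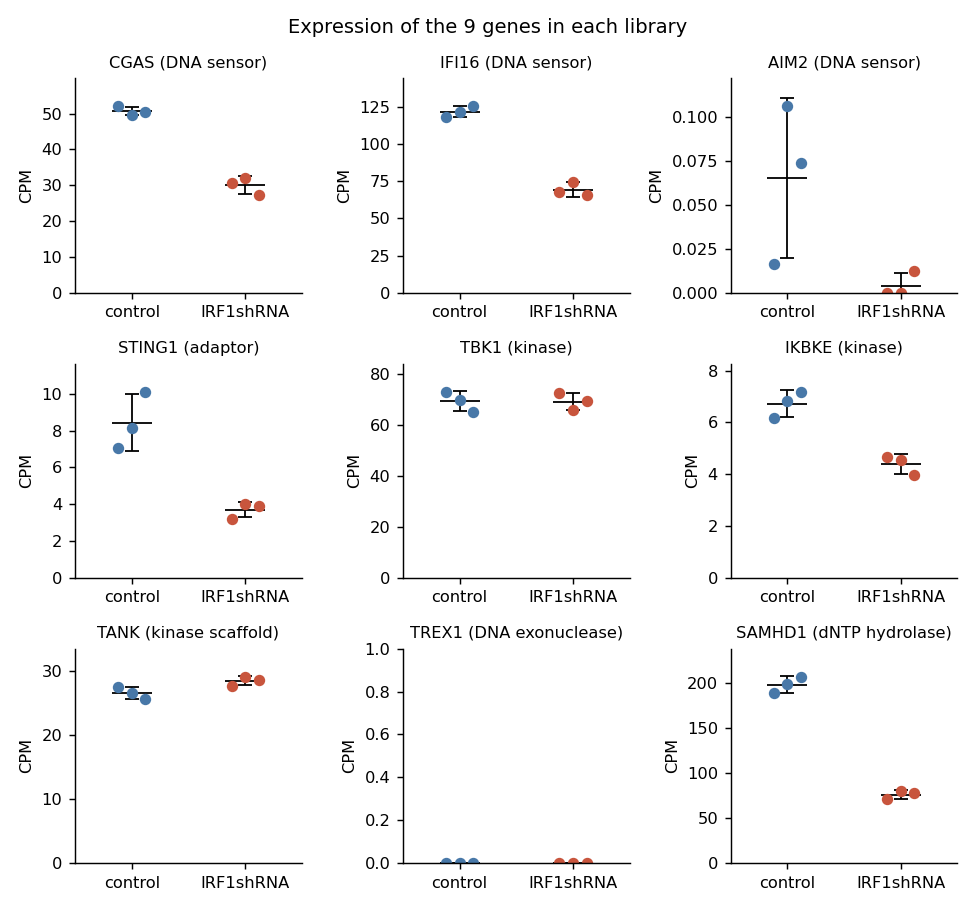
CPM (y axis, linear from 0, a separate scale in each panel) of each of the 9 genes in the 3 control (blue) and 3 IRF1shRNA (red) libraries, with points for libraries, a horizontal line for the mean and bars for the SD. The groups are separate for CGAS, IFI16, STING1, IKBKE and SAMHD1, narrowly so for TANK, overlap for TBK1, and lie at or near 0 for AIM2 and TREX1.

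Promoter sequences are shown for 5 of the genes, to set the genes that fell (SAMHD1, IFI16, IKBKE) and the one gene with a motif match (AIM2) beside a gene with no detected change (TBK1). Each is the RefSeq sequence of GRCh38.p14 from 250 bases before to 50 bases after an annotated start, 5′ to 3′ on the strand of the gene, and 7 of the 9 genes had an entry. CGAS and STING1 had none. Both strands of each window were searched for an IFN-stimulated response element, the kind of site that IRF1 binds, written as GAAA repeated after 2 bases of any kind, and for a gamma-activated sequence, written as TTCNNNGAA. These were present in 3.57% and 7.66% of all 35116 promoters of this length, respectively. The single match among the 7 genes, shown in capitals, was a response element in the AIM2 promoter, read on the strand opposite to the one printed, which begins at position −190 relative to the start. IFI16 and TANK each had 2 annotated starts and no match at either. For IFI16 the downstream start is shown. The RefSeq starts used for IFI16 and AIM2 lie inside the GENCODE spans given below. The outermost starts of those spans, at 158999968 for IFI16 and 159147096 for AIM2, were not searched. A match or its absence describes these letters in this window and shows nothing about binding.
AIM2 (chr1:159076717-159077016, minus strand): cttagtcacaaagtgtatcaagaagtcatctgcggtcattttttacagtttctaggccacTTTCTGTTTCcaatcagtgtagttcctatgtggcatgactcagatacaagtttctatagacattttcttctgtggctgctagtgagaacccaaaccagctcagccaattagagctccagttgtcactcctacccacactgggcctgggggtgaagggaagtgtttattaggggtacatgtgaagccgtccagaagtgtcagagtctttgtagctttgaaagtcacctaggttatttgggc
IFI16 (chr1:159009657-159009956, plus strand): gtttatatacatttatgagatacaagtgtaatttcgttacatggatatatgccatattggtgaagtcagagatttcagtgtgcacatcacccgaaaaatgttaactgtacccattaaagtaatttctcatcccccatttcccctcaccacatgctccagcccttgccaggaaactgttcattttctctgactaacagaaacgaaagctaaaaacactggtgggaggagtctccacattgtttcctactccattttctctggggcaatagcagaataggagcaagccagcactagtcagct
SAMHD1 (chr20:36951659-36951958, minus strand): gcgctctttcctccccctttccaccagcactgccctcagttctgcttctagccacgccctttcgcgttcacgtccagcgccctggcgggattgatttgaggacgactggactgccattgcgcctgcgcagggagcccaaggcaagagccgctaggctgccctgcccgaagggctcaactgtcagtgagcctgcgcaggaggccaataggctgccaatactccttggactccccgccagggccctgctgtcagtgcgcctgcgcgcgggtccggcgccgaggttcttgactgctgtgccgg
IKBKE (chr1:206470226-206470525, plus strand): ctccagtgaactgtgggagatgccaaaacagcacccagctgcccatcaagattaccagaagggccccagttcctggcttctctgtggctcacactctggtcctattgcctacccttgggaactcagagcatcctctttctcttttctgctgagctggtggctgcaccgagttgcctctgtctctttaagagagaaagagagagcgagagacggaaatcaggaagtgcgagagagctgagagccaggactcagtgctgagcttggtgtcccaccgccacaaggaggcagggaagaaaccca
TBK1 (chr12:64451870-64452169, plus strand): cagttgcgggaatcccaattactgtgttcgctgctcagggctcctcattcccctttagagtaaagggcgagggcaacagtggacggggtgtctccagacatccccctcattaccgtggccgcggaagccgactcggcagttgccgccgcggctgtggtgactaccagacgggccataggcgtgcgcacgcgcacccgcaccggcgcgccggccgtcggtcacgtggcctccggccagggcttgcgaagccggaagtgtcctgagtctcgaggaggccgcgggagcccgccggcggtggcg

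The DNA sensors were considered first. CGAS, the gene of the cGAMP synthase (chr6:73413515-73452276, minus strand, GENCODE release 29), was at 52.0, 49.7 and 50.5 CPM in the control libraries and at 30.7, 32.1 and 27.3 CPM in the IRF1shRNA libraries. Every silenced library was therefore below every control library, and the spread within each group was small beside the gap. The mean fell from 50.8 ± 1.20 to 30.0 ± 2.49 CPM (SD, n = 3 each), which was 59.2% of control and a log2 fold change of −0.76 ± 0.058 (SE) and an adjusted p of 7.61e-09 in edgeR. IFI16 encodes a DNA-binding protein of the PYHIN family that acts in the nucleus and cytosol and cooperates with STING (chr1:158999968-159055155, plus strand). It was at 118, 122 and 125 CPM in the control libraries and at 68.0, 74.8 and 65.5 CPM in the IRF1shRNA libraries. The groups were again separate, and IFI16 stood at 57.1% of control, at a log2 fold change of −0.81 ± 0.050 (adjusted p 4.55e-10 in edgeR). The 95% intervals of both log2 fold changes, −0.88 to −0.64 for CGAS and −0.92 to −0.71 for IFI16, overlapped. The promoter of IFI16 shown above held neither motif, and its exons are shared with no other annotated gene.

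AIM2, the sensor that assembles an inflammasome with the adaptor ASC and caspase-1, lies beside IFI16 on the minus strand (chr1:159062484-159147096) and was close to undetected. It had 2, 13 and 11 counts in the control libraries and 0, 0 and 2 counts in the IRF1shRNA libraries, too few to pass the filter. IRF1shRNA replicates 1 and 2 held no count, whereas control replicate 1 held as many as IRF1shRNA replicate 3. Even values were overrepresented among low counts (72.1% to 75.2% of values from 2 to 11 per library), as would arise if the mates of a read pair were each counted. This was not tested, and the summed counts were halved before an interval was set. On that basis 13 control and 1 IRF1shRNA fragments gave a rate of 9.12% of control, with an exact 95% interval from 0.215% to 60.7% that covers counting error only. In alternatives that kept all low counts, AIM2 was lower, with an adjusted p of 0.0311 in edgeR without the filter and of 0.0434 in DESeq2. Both of these fits used the counts as deposited, which were not halved. Its promoter, shown above, was the single one with a response element match among the genes that had an entry, which CGAS and STING1 lacked.

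STING1, the adaptor that cGAMP activates (chr5:139475534-139482935, minus strand), fell further than its upstream enzyme by point estimate. It was at 7.08, 8.12 and 10.1 CPM in the control libraries and at 3.22, 4.0 and 3.89 CPM in the IRF1shRNA libraries. Control replicate 3 was the highest library, and the lowest control library remained above all silenced libraries. The mean fell from 8.44 ± 1.56 to 3.71 ± 0.422 CPM (SD, n = 3 each), which was 43.9% of control and a log2 fold change of −1.20 ± 0.12 (SE; adjusted p 2.32e-07 in edgeR). To compare adaptor and enzyme directly, the log2 ratio of STING1 to CGAS was taken within each library. It was −2.60 ± 0.28 in control and −3.02 ± 0.22 in IRF1shRNA libraries (SD, n = 3 each), a difference of −0.42 that was not resolved (exact two-sided permutation p = 0.2, and 0.2 after adjustment over the 2 ratios tested here). The ratios of the groups overlapped, since IRF1shRNA replicate 3 at −2.81 lay above control replicate 1 at −2.88.

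**Figure D2:**
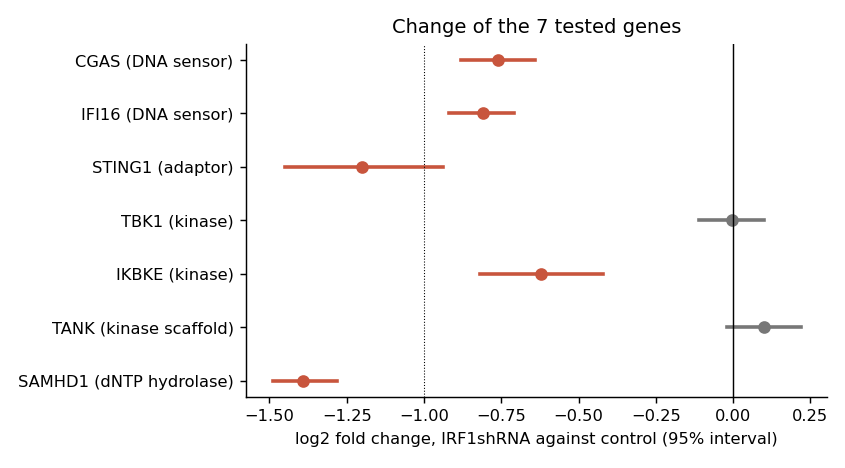
Log2 fold change of IRF1shRNA against control (x axis, with its 95% interval from edgeR) for the 7 tested genes, ordered by role; red marks an adjusted p under 0.05, grey a value past it, and the dotted line a 2-fold decrease. SAMHD1 at −1.39 and STING1 at −1.20 lie farthest from 0, and the intervals of TBK1 and TANK include 0.

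Of the kinases downstream of STING, IKBKE was called lower and TBK1 was not called. TBK1, which phosphorylates STING and IRF3 (chr12:64451880-64502108, plus strand), was at 73.2, 69.9 and 65.2 CPM in the control libraries and at 72.5, 65.8 and 69.4 CPM in the IRF1shRNA libraries. The groups overlapped. The log2 fold change was −0.0031 ± 0.050 (SE; adjusted p 0.966 in edgeR). Changes within its 95% interval, from −0.11 to 0.10, are compatible with these libraries. IKBKE, whose product IKKε is the closest relative of TBK1 and is itself induced by inflammatory signals (chr1:206470476-206496889, plus strand), was at 6.17, 6.81 and 7.20 CPM in control libraries and at 4.67, 4.56 and 3.97 CPM in IRF1shRNA libraries. All silenced libraries were below all controls, at 65.4% of control on average, with a log2 fold change of −0.62 ± 0.093 (adjusted p 2.35e-05 in edgeR). Within each library the log2 ratio of IKBKE to TBK1 was −3.57, −3.36 and −3.18 in the control libraries and −3.96, −3.85 and −4.13 in the IRF1shRNA libraries. The ratio was thus lower in all silenced libraries, by 0.61 on the log2 scale as a difference of the means, −3.98 ± 0.14 against −3.37 ± 0.19 (SD, n = 3 each). The exact two-sided permutation p was 0.1, the smallest that 3 against 3 libraries allow, and 0.2 after adjustment over the 2 ratios.

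**Figure D3:**
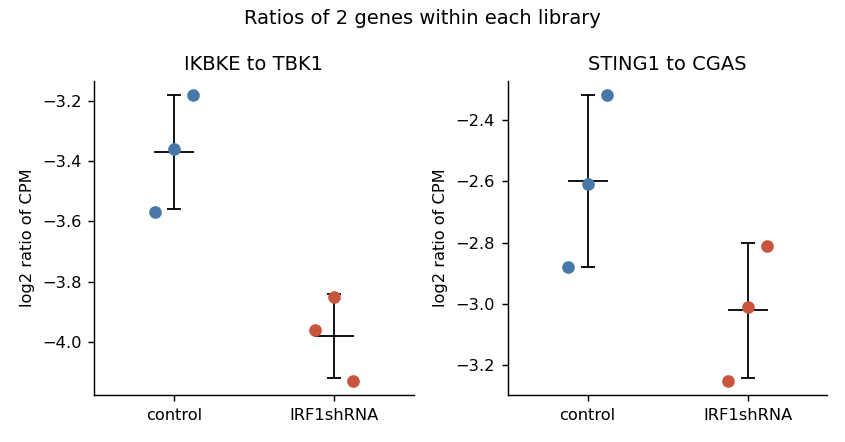
Log2 ratio of CPM within each library (y axis) for IKBKE to TBK1 and for STING1 to CGAS in control (blue) and IRF1shRNA (red) libraries, with points for libraries, a line for the mean and bars for the SD. The IKBKE to TBK1 ratios of the groups are separate, with means of −3.37 and −3.98, whereas the STING1 to CGAS ratios overlap.

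TANK encodes a scaffold that binds TBK1 and IKKε and also restrains NF-κB signaling (chr2:161136908-161236221, plus strand). It was at 27.6, 26.5 and 25.6 CPM in the control libraries and at 27.7, 29.1 and 28.6 CPM in the IRF1shRNA libraries. The silenced libraries were all slightly above the controls, with the nearest pair at 27.7 and 27.6 CPM. The log2 fold change of 0.10 ± 0.057 (SE; 95% interval −0.020 to 0.22) had an adjusted p of 0.159 in edgeR and was not called. Scaling by upper quartile gave 0.14 with an adjusted p of 0.0437 in edgeR, and scaling by library size 0.15 with 0.0379, settings that shifted the median of all genes up to 0.0414 and 0.0488.

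SAMHD1, the hydrolase that depletes the deoxynucleotides needed for reverse transcription and DNA synthesis (chr20:36889773-36951901, minus strand), changed the most among the tested genes. It was at 189, 199 and 207 CPM in the control libraries and at 70.4, 79.4 and 77.6 CPM in the IRF1shRNA libraries. The highest silenced library, at 79.4 CPM, was far below the lowest control library, at 189 CPM. The mean fell from 198 ± 9.14 to 75.8 ± 4.74 CPM (SD, n = 3 each), which was 38.3% of control and a log2 fold change of −1.39 ± 0.051 (SE; adjusted p 7.10e-13 in edgeR). On the opposite strand, exons of TLDC2 cover 10.3% of the exons of SAMHD1. TLDC2 itself had 62, 58 and 69 counts in control and 8, 6 and 23 counts in IRF1shRNA libraries, against 4408 to 30840 for SAMHD1. TLDC2 was thus also lower in the IRF1shRNA libraries, and whether reads of one gene were counted for the other was not tested.

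TREX1, the exonuclease that degrades cytosolic DNA (chr3:48465811-48467645, plus strand), was listed at 0 counts in all 6 libraries. All 1515 bases of its annotated exons are also exons of ATRIP, the partner of the checkpoint kinase ATR, on the same strand, which was the case for none of the other 8 genes. ATRIP had 1512 to 4511 counts per library. How reads in shared exons were counted is not given in the sources used here, and the part of this overlap in the 0 was not tested, so neither a level nor an upper limit is given for TREX1. ATRIP, named here for this overlap and after its values were seen, rose from 22.1 ± 0.451 to 27.1 ± 0.339 CPM (SD, n = 3 each; log2 fold change 0.29 ± 0.056, adjusted p 0.000298 in edgeR). Whether reads from the shared exons entered that value was not tested. Other overlaps were with genes on the opposite strand and covered 14.7% of the exons of TBK1, 4.33% of CGAS, 4.12% of IKBKE and 1.51% of TANK.

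Levels of the genes were then compared per length, as CPM per kb of all annotated exons (a level, not a change). In control libraries the order was IFI16 (23.0 ± 0.700, SD, n = 3), SAMHD1 (17.6 ± 0.811), TBK1 (14.6 ± 0.842), CGAS (12.2 ± 0.288), TANK (4.76 ± 0.180), STING1 (2.19 ± 0.404) and IKBKE (1.78 ± 0.136). Neighbours in this order were separate in all 3 libraries, except that the ranges of STING1 (1.84 to 2.63) and IKBKE (1.63 to 1.90) overlapped. The adaptor STING1 was thus among the least abundant of these transcripts, well below the enzyme that signals to it. In IRF1shRNA libraries the order was TBK1 (14.5 ± 0.709), IFI16 (13.1 ± 0.908), CGAS (7.23 ± 0.600), SAMHD1 (6.73 ± 0.421), TANK (5.11 ± 0.127), IKBKE (1.16 ± 0.100) and STING1 (0.963 ± 0.110). Here TBK1 overlapped with IFI16, and CGAS with SAMHD1, while IKBKE and STING1 were separated by 1.05 against 1.04 CPM per kb. The order in IRF1shRNA libraries depended on the length used. With the longest principal transcript as the length, a choice made after seeing the data, the order in control libraries was the same, and STING1 (4.77, at least 4.0) no longer overlapped with IKBKE (2.09, at most 2.23). In IRF1shRNA libraries it became IFI16 (25.4), TBK1 (21.3), SAMHD1 (14.3), TANK (13.1), CGAS (9.44), STING1 (2.09) and IKBKE (1.37 CPM per kb). IFI16 was thus above TBK1, SAMHD1 and TANK above CGAS, and STING1 above IKBKE, each pair separate in all 3 libraries, while SAMHD1 and TANK overlapped. SAMHD1 was above TBK1 in control and below it in IRF1shRNA libraries with both lengths.

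**Figure D4:**
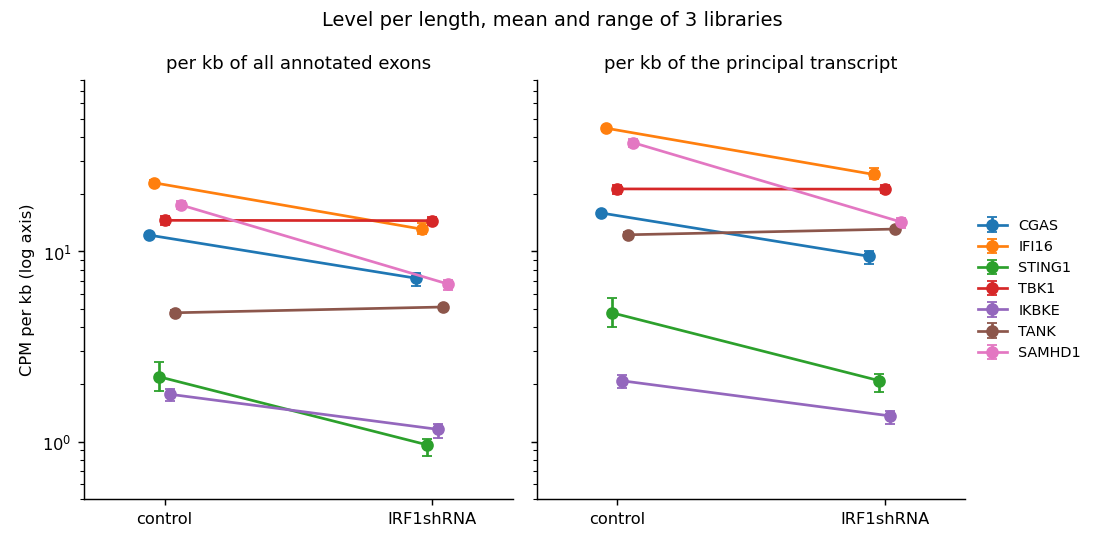
Level in CPM per kb (y axis, log scale) of the 7 tested genes in control and IRF1shRNA libraries, as mean and range of 3 libraries, with length taken from all annotated exons (left) or from the principal transcript (right). SAMHD1 crosses below TBK1 in both panels, whereas IFI16 crosses below TBK1, and STING1 below IKBKE, with the exon length and not with the principal transcript.

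Genes with the most similar pattern over the 6 libraries were sought for the 2 genes that fell by more than 2-fold, among 13059 genes that averaged 1 CPM or more. Likeness was the root-mean-square difference in log2 CPM, with each gene set to 0 at its control mean. Nearest to SAMHD1 were PTGIS, the prostacyclin synthase (difference 0.054), and BTN3A2, a butyrophilin (0.054). BTN3A2 was at 18.4, 18.1 and 20.3 CPM in control and 6.73, 8.07 and 7.14 CPM in IRF1shRNA libraries. Nearest to STING1 were DUSP15, a dual-specificity phosphatase (0.057), and FAM167B (0.087), with log2 fold changes of −1.21 and −1.17. DUSP15 was at 3.74, 3.79 and 4.90 CPM in control and at 1.54, 1.95 and 1.93 CPM in IRF1shRNA libraries. Control replicate 3 was highest for DUSP15 and STING1, a likeness that follows from how DUSP15 was chosen.

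Other genes of the pathway were examined in 6 lists of 113 genes, of which 100 were tested. Of these, 44 fell and 22 rose (44% and 22%, against 26.4% and 24.1% of all genes tested). By more than 2-fold 15 fell and 0 rose, against 4.43% and 3.43% of all genes tested. Such rises were also 0 at an unadjusted p under 0.05 in edgeR, and 0 in DESeq2. These totals include the list of downstream factors and targets, which held 11 of the falls and 8 of those over 2-fold. Part of that list was known to fall in these libraries when it was written. All 6 lists were chosen with earlier results of these data known, so none of their shares is independent evidence. The highest log2 fold change among the 100 tested genes was 0.85, for the scarce ZDHHC15, which was not called and is named after its value was seen. The median log2 fold change was −0.119.

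The list of transcription factors and target genes placed downstream of TBK1 had the largest median change of the pathway lists. Its name gives the place of these genes in the pathway only. Whether TBK1 had any part in their changes here was not tested. Of 13 tested genes in that list 11 fell and 1 rose (85% and 7.7%, against 26.4% and 24.1% of all genes tested). Among these falls 8 were by more than 2-fold, and the median log2 fold change of the list was −1.448. Part of this list was already known to fall in these libraries when it was written, so its direction is no independent evidence. IFIT1, an antiviral protein that binds foreign RNA, was at 60.3, 81.9 and 90.4 CPM in control and at 5.06, 7.03 and 7.31 CPM in IRF1shRNA libraries (log2 fold change −3.59 ± 0.14). Its relative IFIT2 and the ubiquitin-like ISG15 stood at −2.77 ± 0.11 and −3.02 ± 0.11. CCL5, a chemokine for T cells, fell from 13.6 ± 2.34 to 1.86 ± 0.373 CPM (SD, n = 3 each). Among genes named after their values were seen, IRF3, the substrate of TBK1, fell slightly from 73.9 to 63.3 CPM (−0.22), IRF7 fell from 8.14 to 2.97 CPM (−1.45) and NFKB1 was the one gene that rose (0.17). IFNB1, the IFN gene that the pathway is best known to induce, had 18, 10 and 8 counts in control and 4, 2 and 6 counts in IRF1shRNA libraries. It did not pass the filter, no call is made for it, and it too was named after its counts were seen.

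Among other DNA sensors and their inflammasome partners, 4 of 15 tested genes fell and 5 rose, with a median of 0.054. These shares were 27% and 33%, against 26.4% and 24.1% of all genes tested. The subunits of the Ku heterodimer that binds DNA ends both rose, XRCC5 from 343 to 433 CPM (log2 fold change 0.34 ± 0.052) and XRCC6 from 478 to 575 CPM (0.27 ± 0.044). POLR3A, the largest subunit of RNA polymerase III, which transcribes AT-rich DNA into a RIG-I ligand, rose by 0.37 ± 0.044, whereas HNRNPA2B1 fell by 0.28 on the log2 scale. The largest decrease was that of CASP1, the protease of the AIM2 inflammasome, named after its values were seen. It had 100, 103 and 160 counts in control and 4, 2 and 4 counts in IRF1shRNA libraries (adjusted p 3.53e-09 in edgeR), at a control level under 1 CPM.

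Nucleases and genes of nucleotide control changed by less than 2-fold, 5 of 14 lower and 2 higher. These shares were 36% and 14%, against 26.4% and 24.1% of all genes tested. EXO1, an exonuclease of mismatch repair and end resection, fell from 81.9 ± 1.81 to 50.3 ± 4.24 CPM (SD, n = 3 each; −0.71 ± 0.053), ADAR, which edits double-stranded RNA, fell by 0.56, and DNASE2, the lysosomal DNase, fell by 0.46 on the log2 scale. FEN1, the flap endonuclease, rose by 0.39 ± 0.046.

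Of 16 tested regulators of cGAS and cGAMP, 7 fell and 4 rose (44% and 25%, against 26.4% and 24.1% of all genes tested). TRIM14, an adaptor that protects cGAS from degradation, was at 56.0, 65.2 and 67.4 CPM in control and at 10.5, 10.6 and 11.2 CPM in IRF1shRNA libraries, with a log2 fold change of −2.54 ± 0.069. TRIM56, a ubiquitin ligase that acts on cGAS and STING, fell from 94.6 to 74.3 CPM (−0.35). Subunits of the volume-regulated channel that carries cGAMP moved apart, with LRRC8C at −0.42 ± 0.066 and LRRC8A at 0.28 ± 0.046.

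Of 22 tested genes of STING trafficking and turnover, 10 fell and 4 rose (45% and 18%, against 26.4% and 24.1% of all genes tested). SURF4, the cargo receptor that returns STING from the Golgi, fell from 488 ± 18.7 to 148 ± 3.02 CPM (SD, n = 3 each; log2 fold change −1.73 ± 0.044, adjusted p 7.56e-15 in edgeR). SEC24C, a coat subunit of the vesicles that carry STING forward, rose from 97.0 to 137 CPM (0.50). USP18, a deubiquitinase that removes ISG15, fell by 3.28 on the log2 scale, and NPC1, the lysosomal cholesterol transporter, by 0.52.

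Among 20 tested adaptors and regulators of TBK1, 7 fell and 6 rose (35% and 30%, against 26.4% and 24.1% of all genes tested). The median log2 fold change was 0.016. TICAM1, the TRIF adaptor that couples Toll-like receptors to TBK1, fell from 26.9 to 17.5 CPM (−0.62), and TNFAIP3, which encodes the NF-κB inhibitor A20, from 18.7 to 13.4 CPM (−0.48). SQSTM1 fell by 0.32, and IKBKG, the NEMO subunit of the IκB kinase, by 0.36 on the log2 scale.

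**Figure D5:**
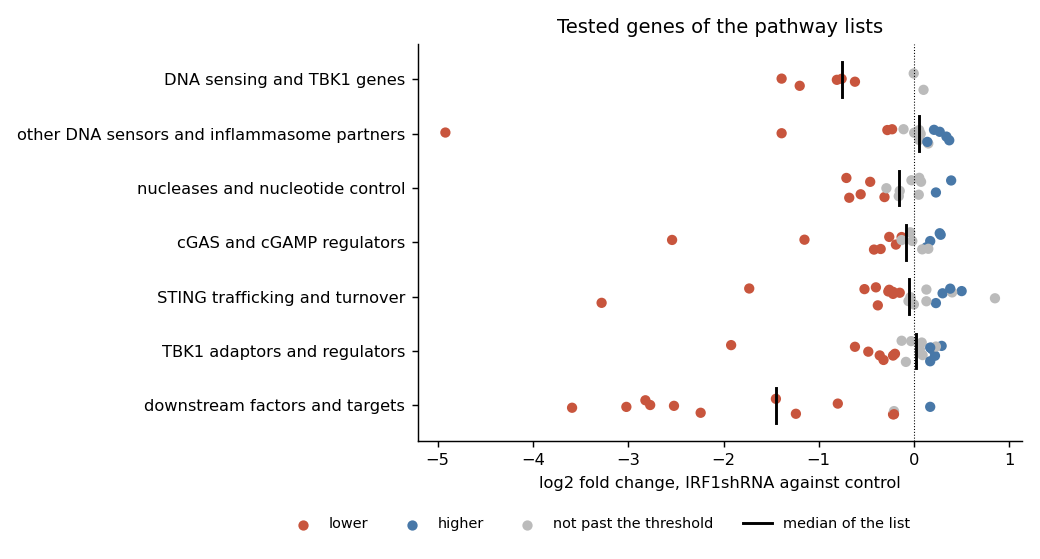
Log2 fold change of IRF1shRNA against control (x axis) for each tested gene of the 9-gene set and of the 6 pathway lists (rows), with red for lower and blue for higher at an adjusted p under 0.05, grey for the rest and a black line at the median of a row. The row of downstream factors and targets has its median at −1.448 and the 9-gene set at −0.76, whereas the other medians lie between −0.154 and 0.054.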

How the data were processed

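RNA-seq libraries from BT-549 cells, 3 control and 3 IRF1shRNA, were prepared with TruSeq Stranded mRNA kits per the labels. The authors deposited unnormalized counts for each gene symbol. The submitters' processing notes name CASAVA 1.8.2, STAR 2.7.9a, featureCounts, DESeq2 1.24.0 and GRCh38 p7, while the annotation release and the strand setting are not given in the sources used here. Depth ranged from 55143808 to 160436234 counts per library.

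The counts were tested with edgeR 4.0.16 (R 4.3.3), using the quasi-likelihood test, group as the factor, TMM scaling, the filterByExpr filter (minimum count 10) and Benjamini-Hochberg adjustment over the 18851 genes kept. The SE was the log2 fold change divided by the square root of F. Within-library ratios were compared by exact permutation (scipy 1.17.1). Per the labels, cells were cultured in triplicate, and each library was treated as its own culture. DESeq2 1.42.0, other scalings, filters, halved counts, a replicate block and leaving out each library were alternatives. Replicates differed beyond sampling noise (chi-square per degree of freedom 5.69 to 13.9 on halved counts).

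The 9 genes and the lists were chosen with earlier results of these data known. Text names the 9 genes, IRF1, up to 4 genes per list with the smallest adjusted p at a mean of at least 1 CPM, and the 2 genes most like each gene past 2-fold; others are said to be outside this rule. Positions and exon lengths came from GENCODE release 29 (GRCh38).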

Additional observations from a re-analysis of the deposited data

How the results depend on the processing

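The falls of CGAS, IFI16, STING1, IKBKE and SAMHD1 stayed past the threshold and downward under each alternative run. The number of genes that fell was 6 without the filter and under DESeq2, and 5 in each other setting. The gene added was AIM2, on counts that were not halved. TBK1, which was not called under any alternative, changed sign under DESeq2 (0.00012), DESeq2 size factors (0.0041), upper quartile scaling (0.041), library size only (0.048), a minimum of 1 CPM in 3 or more samples (0.022) and halved counts (0.0048), and ran from −0.043 to 0.036 across fits without 1 library. TANK was called higher under upper quartile scaling (0.14) and library size only (0.15), where the number of the 9 genes that rose was therefore 1. IFI16 less TBK1 in IRF1shRNA libraries was −1.42 CPM per kb with the exon length and 4.14 with the principal transcript.

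The fit with a replicate block gave log2 fold changes of −0.76 for CGAS, −0.81 for IFI16, −1.19 for STING1, −0.62 for IKBKE, −1.39 for SAMHD1, −0.0031 for TBK1 and 0.10 for TANK, and the block changed no call among these. Same-numbered libraries did not deviate together (correlations −0.0124, 0.0328 and 0.0205), so no pairing was assumed. Over all settings, 39 to 45 genes of the pathway lists fell and 20 to 31 rose. Of the other genes named here, 33 were followed through the alternatives, counted without IRF1. These kept their direction and call in all 461 refits, including other scalings. ZDHHC15, IFNB1, TLDC2 and the marker genes were not among them. AIM2 and IFNB1 had few counts, at most 13 and 18 in any library. In IRF1shRNA libraries they had 0 to 2 and 2 to 6 counts, around the floor of 3 counts, which limits what can be said of both.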
